A study of Mus musculus with 8 samples.

Results

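The response of 32Dcl3 cells to granulocyte colony-stimulating factor (G-CSF) was compared between a culture that carried mutant ASXL1 and a control culture, for every gene measured. 32Dcl3 cells are immature mouse myeloid cells that depend on interleukin-3 (IL-3) for growth, and G-CSF makes them mature into neutrophil-like cells. The mock culture was transduced with the retroviral vector pMYs-IG, and the ASXL1-MT culture with pMYs-FLAG-ASXL1-MT-IG, which adds a FLAG-tagged mutant ASXL1. Each culture was measured on 1 Affymetrix mouse array in IL-3 and on 1 array after 2, 6 and 24 h of G-CSF, so the series holds 8 arrays. The 6 arrays in IL-3, at 6 h and at 24 h give the response difference, which is the change from IL-3 in the ASXL1-MT culture minus the change from IL-3 in the mock culture. A positive difference means that the ASXL1-MT culture gained more, or lost less, than the mock culture. Genes are described where the differences at 6 h and 24 h had the same sign.

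No condition had a replicate, and the differences at 6 h and 24 h share both IL-3 arrays, so an unusual value on either IL-3 array enters both times with the same sign. The number of arrays limits the precision, and no gene's difference at a single time has an error. Whether the arrays came from separate cultures, and whether G-CSF replaced IL-3 or was added to it, is not in the labels. Values are log2 expression relative to the median of the same probe set over the 8 arrays, so they show differences between arrays and not levels. A base of 2 was assumed, and under a natural log each difference would be 1.44 times larger.

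G-CSF signals through its receptor and the transcription factor STAT3, with a contribution from STAT5, and drives myeloid progenitors to build granule proteins in order: primary (azurophilic) granules first, then secondary and tertiary granules. IL-3 signals mainly through STAT5 and keeps the progenitors dividing. ASXL1 is a chromatin regulator that works with the deubiquitinase BAP1 and with Polycomb complexes, and truncating ASXL1 mutations occur in myeloid neoplasms.

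The table covered 18193 genes, of which 12984 passed a filter on dim genes and were used. Of these, 7740 reached a stricter brightness limit on at least 2 arrays and are called bright here. A bright gene can therefore be dim on its other arrays. The sign was the same at both times in 8362 genes (64.4% of those used), with 4360 higher (33.6%) and 4002 lower (30.8%) in the ASXL1-MT culture. A size rule asked for a difference of at least 1 on the log2 scale, which is 2-fold, at both times. It was met by 1157 genes (8.91%), of which 637 were higher (4.91%) and 520 lower (4.00%). Among the bright genes 67 met it (0.866%), 39 higher (0.504%) and 28 lower (0.362%), while 1090 of the 5244 dimmer genes did (20.8%). Most bright genes lay close to 0: 6745 of 7740 (87.1%) measured less than 0.5 in size at both times, against 7769 of all genes used (59.8%). Over all 45037 probe sets the sign was the same at both times in 29137 (64.7%), with 15323 higher (34.0%) and 13814 lower (30.7%). The size rule was met by 8190 probe sets (18.2%), 4455 higher (9.89%) and 3735 lower (8.29%). Counting from the mean of the IL-3 and 2 h arrays, 543 genes in place of 637 were higher and 304 in place of 520 lower by the rule. Counting from the 2 h arrays alone, 736 were higher and 436 lower.

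**Figure D1:**
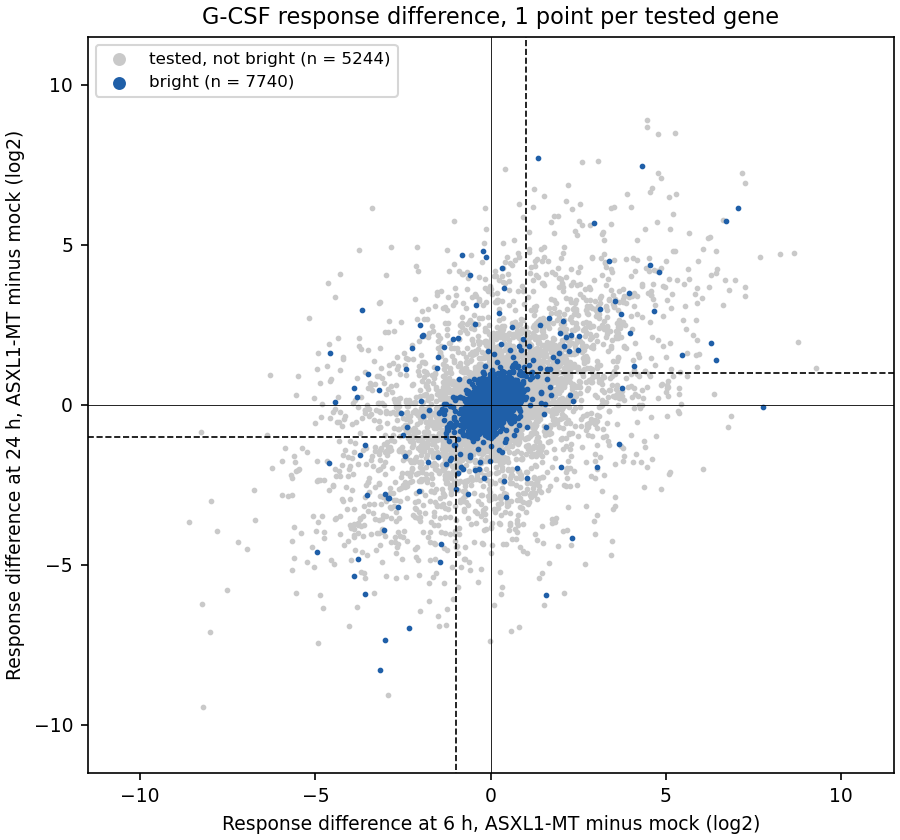
Response difference at 6 h (horizontal axis) and 24 h (vertical axis), ASXL1-MT minus mock on the log2 scale, 1 point per gene, with 7740 bright genes in blue and 5244 dimmer genes in grey. Dashed lines bound the corners where both differences reach 1 with the same sign. Nearly all blue points lie close to the origin, and most points in the corners are grey.

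The size of the differences followed the brightness of the genes. At an estimated expression level of 8 or more on the log2 scale, 36 of 7613 genes (0.473%) met the size rule, and the median size of the difference was 0.14 at 6 h and 0.15 at 24 h. At levels of 4 to 8 it was 1112 of 5350 genes (20.8%), with medians of 0.78 and 0.76. Dim probe sets also varied more over all 8 arrays, with a median SD of 0.72 at levels of 4 to 8 against 0.26 at 8 or more.

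Most neutrophil maturation genes had small response differences, as most bright genes did. Over the 3 neutrophil lists, 44 genes were bright, and 38 of them differed by less than 0.5 at both times, a share close to the 87.1% of all bright genes. Their median response difference was 0.03 at 6 h and 0.02 at 24 h, against 0.01 and 0.01 over all bright genes. In bulk RNA, fewer cells of a type and less RNA per cell cannot be told apart.

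Of 13 primary granule genes 12 were on the array, all were bright, and all 12 lay within 0.5 at both times. Myeloperoxidase (Mpo), which makes hypochlorous acid, measured -0.11 in IL-3, 0.07 at 6 h and 0.36 at 24 h in the ASXL1-MT culture, and -0.19, 0.06 and 0.31 in the mock culture. Neutrophil elastase (Elane) measured -0.13, 0.13 and 2.15 in the ASXL1-MT culture and -0.17, 0.39 and 2.08 in the mock culture. Both cultures had their highest value of these genes at 24 h, and the response differences at 24 h were -0.02 for Mpo and 0.03 for Elane. The bacteriolytic enzyme lysozyme (Lyz2) was further apart, with -0.29, -0.21 and 2.36 against 0.04, 0.18 and 3.04. Its response difference was -0.07 at 6 h and -0.36 at 24 h.

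Of 20 secondary and tertiary granule genes 19 were on the array and 12 were used. At both times 6 were higher and 5 lower (against 33.6% and 30.8% of all genes used). Only 1 of the 12, Ltf, met the size rule, as did 8.91% of all genes used. The haemoglobin scavenger haptoglobin (Hp) measured -1.26, 0.80 and 3.53 in IL-3, at 6 h and at 24 h in the ASXL1-MT culture, and -1.22, 1.14 and 3.83 in the mock culture. The siderophore-binding lipocalin Lcn2 measured -1.23, 0.50 and 3.23 against -0.69, 1.04 and 3.51. The ASXL1-MT array was the lower of the pair at each of these conditions. For Lcn2 the response difference was 0.01 at 6 h and 0.27 at 24 h, because the gap in IL-3 was like the later ones. The granule protein Ngp started lower in the ASXL1-MT culture (-1.17 against -0.04 in IL-3) and ended close to mock at 24 h (4.19 against 4.51), a response difference of 0.12 at 6 h and 0.81 at 24 h.

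Lactoferrin (Ltf), the iron-binding protein of secondary granules, had the largest response difference among the granule genes. It measured -2.02, -0.36 and 1.91 in IL-3, at 6 h and at 24 h in the ASXL1-MT culture, and 0.30, -0.14 and 2.38 in the mock culture. Its differences of 2.10 and 1.84 came with a low ASXL1-MT array in IL-3. At 2 h, 6 h and 24 h the cultures lay 0.53, 0.22 and 0.48 apart, with ASXL1-MT the lower. Counted from the 2 h arrays, the mean difference of Ltf over 6 h and 24 h was 0.18.

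Of 34 genes of the mature neutrophil surface and function, 27 were on the array and 25 used, with 11 higher and 6 lower at both times (against 33.6% and 30.8% of all genes used). The G-CSF receptor Csf3r measured -0.75, 0.34 and 1.55 in the ASXL1-MT culture and -0.34, 0.61 and 1.68 in the mock culture, with response differences of 0.14 and 0.28. The endotoxin co-receptor Cd14 measured -1.77, 0.29 and 2.44 against -0.29, 0.96 and 2.96, with differences of 0.81 and 0.96. For both receptors the ASXL1-MT array was the lower in every condition, and the gap was widest in IL-3. The chemokine receptor Ccr1 went the other way, with -0.48, -0.29 and 4.03 against -0.15, 0.52 and 4.87 and differences of -0.48 and -0.51.

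**Figure D2:**
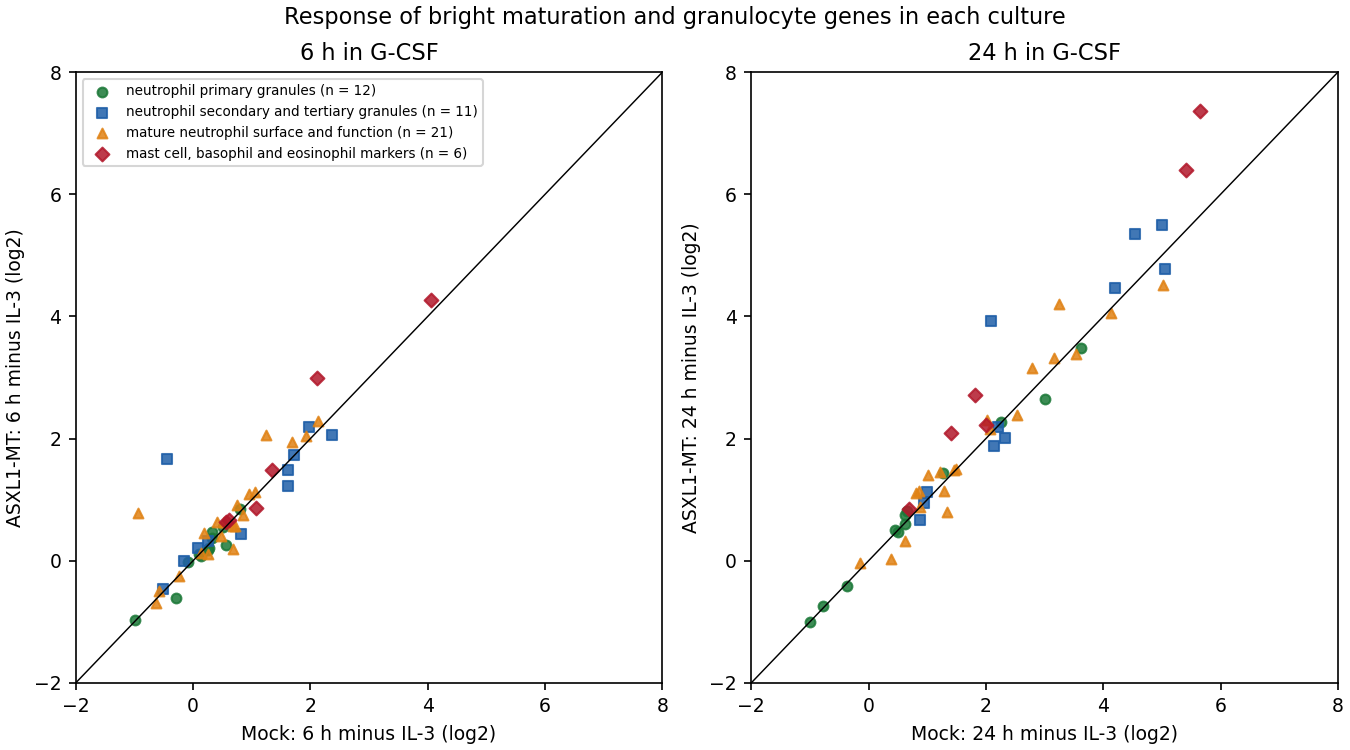
Change from IL-3 on the log2 scale in the mock culture (horizontal axis) and the ASXL1-MT culture (vertical axis) at 6 h (left) and 24 h (right), for bright members of 3 neutrophil lists (12, 11 and 21 genes) and for 6 bright mast cell, basophil and eosinophil markers. Each point is a gene and the line marks equal responses. Neutrophil genes follow the line, Ltf lies above it at both times, and at 24 h all 6 diamonds lie above it.

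Within the same neutrophil lists, a distance between the cultures was present in IL-3 and at 24 h. In IL-3, 35 of the 44 bright genes were lower in the ASXL1-MT culture, and at 24 h 32 were, with a median of -0.17 at both. Over all 7740 bright genes, 3861 were lower in IL-3 and 3898 at 24 h, with medians of 0.00 and -0.00. Bright genes were also grouped by the size of their G-CSF response. In 148 genes whose mean over the cultures at 24 h exceeded IL-3 by 2 or more, the median response was 2.64 in the ASXL1-MT culture and 2.53 in mock. Of these, 107 were lower in the ASXL1-MT culture in IL-3 and 110 at 24 h. Their responses varied: 81 of the 148 differed by less than 0.5 at both times and 22 met the size rule. Over all bright genes the shares were 87.1% and 0.866%. A gene in this set can be bright through its 24 h arrays and dim in IL-3. In 339 genes whose mean was lower by 1 or more, the median response was -1.19 and -1.23. Of these, 274 differed by less than 0.5 at both times and 8 met the size rule. In IL-3 98 of the 339 were lower in the ASXL1-MT culture, and at 24 h 93. The first set thus held mostly genes that were lower in the ASXL1-MT culture, and the second mostly genes that were higher.

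Several granule genes of eosinophils and mast cells differed at 24 h with the ASXL1-MT culture the higher, though none met the size rule or passed the test. Of 25 listed mast cell, basophil and eosinophil markers 20 were on the array, 14 were used and 6 were bright. Of the 14, 9 were higher at both times (against 33.6% of all genes used) and 2 lower (against 30.8%). With quantile normalization repeated 4 were higher and 3 lower, and counted from the 2 h arrays 8 were higher and 5 lower, with 1 and 2 past the size rule. The median response difference of the 14 was 0.11 at 6 h and 0.19 at 24 h. The 6 bright markers had medians of 0.11 and 0.79, against 0.01 and 0.01 over all bright genes. Of the 6, Prg2 and Prg3 were bright through their G-CSF arrays and lay below the brightness limit in IL-3. The lowest mean over both times was that of the dimmer mast cell tryptase Tpsb2, with differences of -4.34 and -0.53.

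Major basic protein (Prg2), the main toxic protein of the eosinophil granule, measured -2.05, 0.94 and 5.31 in IL-3, at 6 h and at 24 h in the ASXL1-MT culture. In the mock culture it measured -0.94, 1.17 and 4.72. The ASXL1-MT array was thus lower in IL-3 and at 6 h and higher at 24 h, with response differences of 0.88 and 1.70. Its homologue Prg3 measured -2.86, 1.41 and 3.54 against -2.23, 1.83 and 3.18, with differences of 0.22 and 1.00 and the same crossing between 6 h and 24 h. Eosinophil peroxidase (Epx) measured -0.04, 0.59 and 2.67 against -0.52, 0.04 and 1.30, with differences of 0.07 and 0.89. Mast cell carboxypeptidase (Cpa3) measured -0.63, 0.86 and 1.47 against -0.87, 0.46 and 0.53, with differences of 0.15 and 0.69.

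For Epx and Cpa3 the ASXL1-MT array was the higher in all 4 conditions, by 0.47, 0.38, 0.54 and 1.37 for Epx and by 0.25, 0.33, 0.40 and 0.94 for Cpa3 in IL-3 and at 2, 6 and 24 h. The widest gap was at 24 h for both genes. The eosinophil lectin Siglecf had differences of -0.22 and 0.22, and the basophil protease Mcpt8 of 0.05 and 0.16. Estimated levels were 8 or more for Epx, Cpa3, Siglecf and Mcpt8 and 6.88 and 7.13 for Prg2 and Prg3. The response differences of Prg2 and Prg3 thus count from dim IL-3 arrays. By limma the late difference of Prg2 was 1.18 ± 0.36 (SE, 8 arrays, adjusted p = 1). The adjusted p of Prg3, Epx and Cpa3 was also 1.

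Target genes of STAT5 and STAT3 included the feedback inhibitors of the JAK-STAT pathway. Of 26 STAT5 and IL-3 targets used, 7 were higher at both times (against 33.6% of all genes used) and 12 lower (against 30.8%), with medians of -0.12 and -0.06. Counted from the 2 h arrays, 10 were higher and 6 lower. Of 23 STAT3 and G-CSF targets used, 9 were higher and 11 lower (against the same shares), with medians of -0.05 and 0.07. Cish, an SH2-domain inhibitor induced by STAT5, measured 2.08, -0.55 and -0.00 in IL-3, at 6 h and at 24 h in the ASXL1-MT culture, and 2.00, -0.18 and 0.45 in the mock culture. It was thus alike in IL-3 and lower in the ASXL1-MT culture at both later times, with response differences of -0.46 and -0.53.

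Socs3, the inhibitor that binds the G-CSF receptor, differed by -1.06 at 6 h and -0.62 at 24 h on the probe set that stands for it. On its other 2 probe sets it differed by -0.23 and 0.19, and by -0.11 and 0.30. The larger value was not shared, so the probe sets of Socs3 disagree. The transcriptional repressor Bcl6 measured -1.02, 0.97 and 1.65 in the ASXL1-MT culture against -1.65, 0.82 and 1.89, with differences of -0.48 and -0.87. The ERK phosphatase Dusp6 (0.05 and -0.19) and the cytokine Osm (-0.16 and -0.27) lay closer to 0.

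The promoters of Cish and Socs3 are shown because STAT factors bind the palindrome TTCNNNGAA, which reads the same on both strands. Each RefSeq window (GRCm38.p6) runs from 250 bases before to 50 bases after the gene's start. Capitals mark every match of the motif, and no match overlaps another. Cish lies at chr9:107296409-107296708 on the plus strand and Socs3 at chr11:117969317-117969616 on the minus strand.
Cish: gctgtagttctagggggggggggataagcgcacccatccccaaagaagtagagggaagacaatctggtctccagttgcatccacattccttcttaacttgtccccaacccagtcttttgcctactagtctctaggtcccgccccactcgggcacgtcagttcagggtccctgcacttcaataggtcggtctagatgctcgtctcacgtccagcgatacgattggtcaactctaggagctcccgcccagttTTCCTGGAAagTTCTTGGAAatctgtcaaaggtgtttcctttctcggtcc
Socs3: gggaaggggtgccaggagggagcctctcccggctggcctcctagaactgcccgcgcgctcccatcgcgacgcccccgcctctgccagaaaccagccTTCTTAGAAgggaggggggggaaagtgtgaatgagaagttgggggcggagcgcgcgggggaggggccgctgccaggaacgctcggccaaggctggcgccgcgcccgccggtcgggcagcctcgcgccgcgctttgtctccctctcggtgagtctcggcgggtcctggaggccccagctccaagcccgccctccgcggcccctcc
The Cish window holds 2 matches and the Socs3 window 1. A match was found in 2726 of 32851 such windows (8.30%), and it describes the letters only.

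The acute-phase protein Saa3 was the one STAT3 target among the bright genes past the size rule, and the one past it at a level of 8 or more among all list members. It measured 0.34, -0.77 and 1.62 in the ASXL1-MT culture and -1.28, -1.22 and 1.73 in mock, so the cultures lay furthest apart in IL-3. Its response differences were -1.16 and -1.74, and the mean was 0.04 when counted from the 2 h arrays.

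Proliferation and growth lists had small differences. Of 30 G2 and M phase genes, all bright, 15 were lower at both times (against 30.8% of all genes used) and 4 higher (against 33.6%). None of the 30 met the size rule. Their median was -0.01 at 6 h and -0.17 at 24 h, and at 24 h the members ranged from -0.86 for the centrosome kinase Nek2 to 0.05. Nek2 measured 0.35, -0.27 and -0.62 in the ASXL1-MT culture and 0.06, -0.12 and -0.06 in mock, so at 24 h the ASXL1-MT array was the lower and in IL-3 the higher. The replication enzyme Top2a measured -0.30, 0.11 and 0.06 against -0.56, -0.06 and 0.33, with differences of -0.10 and -0.53. Counted from the 2 h arrays, the median of the list was 0.04 at 6 h and -0.16 at 24 h, with 11 members lower and 4 higher.

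Of 38 ribosome biogenesis and MYC target genes 21 were higher at both times (against 33.6%) and 8 lower (against 30.8%), with medians of 0.05 and 0.06. This direction depended on the scaling between arrays: with quantile normalization repeated, 11 were higher and 15 lower. The largest value at 24 h was 0.68, for the translation factor Eif4e (0.17 at 6 h), and the lowest -0.55, for the polyamine enzyme Odc1 (-0.68 at 6 h). S phase genes (9 higher and 11 lower of 34) and cholesterol synthesis genes (8 and 5 of 19), against the same shares, had medians between -0.07 and 0.03 at both times.

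Of 32 genes of the Polycomb and ASXL1 complexes used, 9 were higher and 9 lower at both times (against 33.6% and 30.8% of all genes used). None of the 32 met the size rule. The histone-binding subunit Rbbp4 measured -0.04, 0.04 and -0.01 in the ASXL1-MT culture and -0.38, 0.18 and 0.46 in mock, with differences of -0.48 and -0.81. It stayed nearly level over the ASXL1-MT arrays and differed by array in mock. The methyltransferase Ezh1 had differences of 0.31 and 0.64, and the catalytic subunit Ezh2 of -0.12 and -0.19. Asxl1 itself measured -0.29, 0.01 and 0.59 in the ASXL1-MT culture and -0.01, 0.48 and 0.86 in mock, with differences of -0.18 and 0.02. On this brightest of its 3 probe sets the ASXL1-MT array was the lower in all 4 conditions, and on the second (estimated level 11.58) the gap was -0.08 in IL-3, -0.01 at 2 h and 6 h and -0.07 at 24 h. On the dimmest (level 6.34) the ASXL1-MT array was higher by 0.99 in IL-3, 0.74 at 2 h, 0.83 at 6 h and 0.16 at 24 h, so the probe sets disagree. The species of the introduced cDNA is not in the labels, and whether the probes lie within it was not tested, so these values check nothing about the transgene.

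Among the 20 bright myeloid transcription factors, all lay within 0.5 at both times, as did all 14 bright cytokine receptors, against 87.1% of all bright genes. Of the dimmer members, the lymphoid factor Ikzf1 (-2.88 and -1.41) and the receptor Il6ra (2.01 and 1.61) met the size rule. The granulocyte factor Cebpd differed by 0.03 and 0.26, and the myeloid master regulator Spi1 by 0.21 and -0.09. The IL-3 receptor alpha chain Il3ra differed by 0.46 and 0.41. In the stem and progenitor list, the niche factor Angpt1 measured 1.96, -1.49 and -1.70 in the ASXL1-MT culture and 1.86, -2.35 and -2.24 in mock, with differences of 0.77 and 0.44. Both cultures held their highest values in IL-3, and the mock culture was the lower at 6 h and 24 h.

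A large difference at 1 time alone was measured for a pair of bright inflammatory cytokines. Il6 measured 1.69, -0.47 and -1.40 in the ASXL1-MT culture and 1.33, -1.21 and -5.40 in mock. The mock array at 24 h was far below the others, so the difference was 0.39 at 6 h and 3.64 at 24 h. Il1b measured -0.47, 0.31 and 0.64 against -0.14, -1.09 and 0.67, with a low mock array at 6 h and differences of 1.73 and 0.29.

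**Figure D3:**
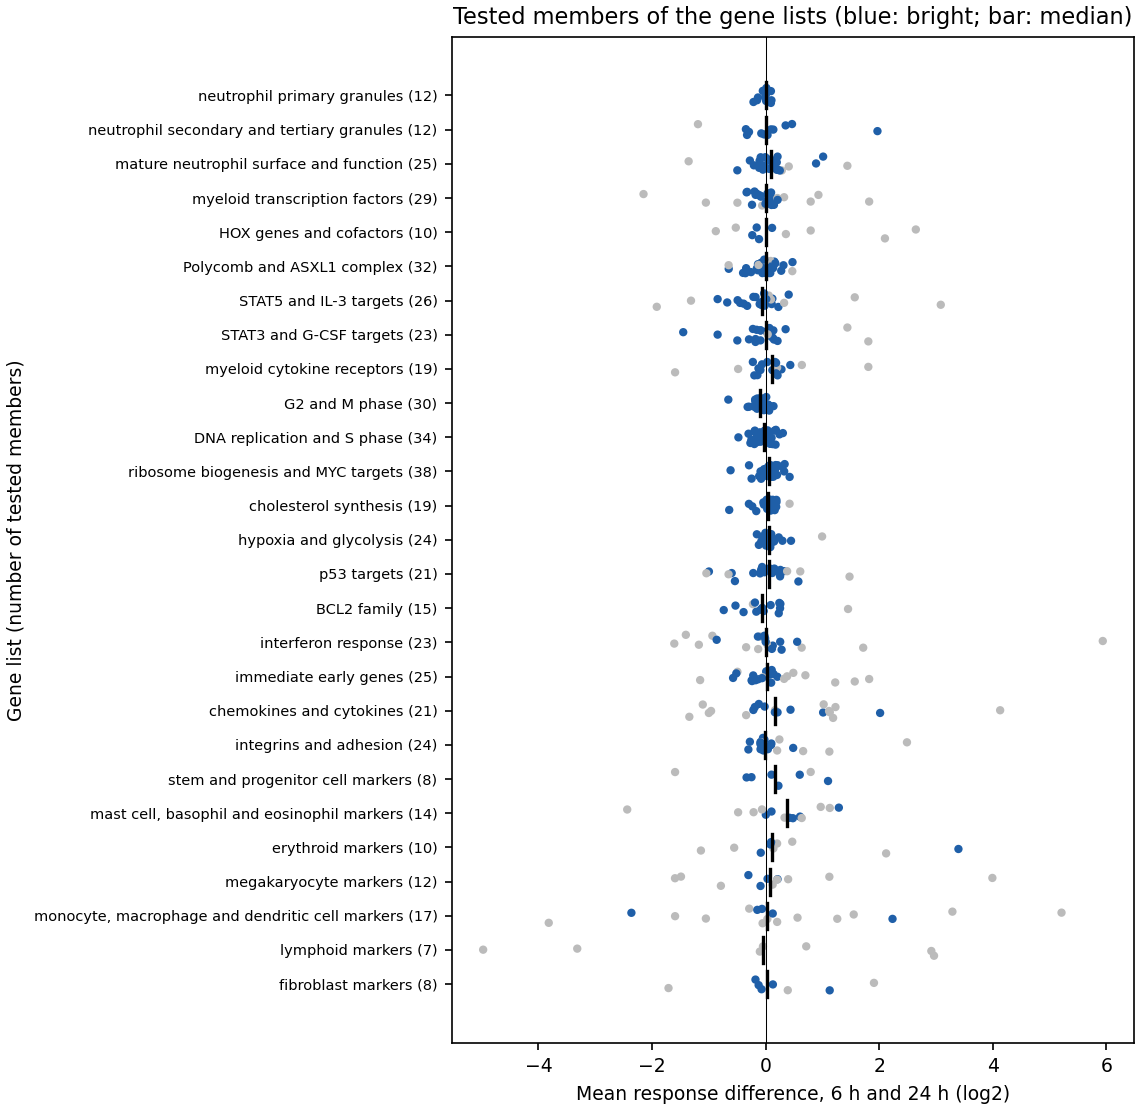
Mean response difference over 6 h and 24 h (horizontal axis, log2, ASXL1-MT minus mock) for each gene list (vertical axis, number of genes used in parentheses). Points are genes, bright ones in blue, and bars are list medians. Blue points gather near 0 in nearly all lists, and the points beyond 2 are mostly grey.

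Across all 27 lists, 639 genes were named, 587 were on the array and 479 were used, of which 23 were higher and 12 lower by the size rule. Over all genes used the shares were 4.91% and 4.00%, and the list members met it in no larger share. Of these 35 genes 5 were bright: Ltf, Saa3, the erythroid ammonium channel Rhag, the macrophage pore protein Mpeg1 and the monocyte chemokine receptor Ccr2. Ltf, Mpeg1 and Ccr2 had estimated levels of 6.43, 6.76 and 5.52. They reached the brightness limit on their 24 h arrays only, so their IL-3 values lay below it. Rhag measured -3.37 in IL-3 on the ASXL1-MT array against -0.35 in mock, and its differences were 3.55 and 3.24. Mpeg1 measured -3.66 against -0.79 in IL-3, with differences of 2.30 and 2.17. Ccr2 measured -0.83 against -2.41 in IL-3, with differences of -2.04 and -2.68. On the probe set used for each of the 3 genes, the cultures lay further apart in IL-3 than at 6 h and 24 h. For Mpeg1 and Ccr2 its sign turned when the 2 h arrays were the baseline. Of 4 Ccr2 probe sets 3 were lower by the rule, and the dimmest gave 0.23 and -1.83. Beside the one used, those past the rule had gaps of 0.68 and 0.85 in IL-3 and 0.34 and 0.79 at 2 h. Their gaps were -2.70 and -1.50 at 6 h and -1.50 and -0.44 at 24 h, so their differences stayed negative from the 2 h arrays.

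The other 30 list members past the size rule were dimmer. The neutrophil chemokine receptor Cxcr2 measured -1.45, 0.22 and 2.10 in the ASXL1-MT culture and -0.20, -0.03 and 1.97 in mock and its difference at 24 h was 1.38. The myeloid lectin Clec5a measured -0.84, -1.89 and 1.52 against -0.12, 0.12 and 3.67 (differences -1.28 and -1.43), and was the lower in the ASXL1-MT culture at all 3 conditions. The interleukin-6 receptor Il6ra measured -2.99, -0.42 and 1.02 against -0.28, 0.28 and 2.12 (differences 2.01 and 1.61).

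The homeobox gene Hoxa9, a factor of immature myeloid cells, measured 0.40, 0.04 and 0.60 in the ASXL1-MT culture and 0.49, -2.36 and -2.10 in mock, with differences of 2.50 and 2.79. The cultures were alike in IL-3 and the mock arrays at 6 h and 24 h were low. A second, dimmer Hoxa9 probe set gave 1.12 and -3.87, so the probe sets disagree at 24 h. The interferon-induced GTPase Gbp2 measured -2.45, 2.63 and 1.64 against 0.93, 0.71 and -1.56, with differences of 5.29 and 6.58. Its other probe set gave 7.30 and 2.06 with a low ASXL1-MT array in IL-3 (-4.26 against 0.96). On that probe set the ASXL1-MT array was the lower at 24 h (-2.07 against 1.09), so the probe sets disagree on the order there. The neutrophil chemoattractant Cxcl1 measured -2.89, -0.02 and 0.67 against 0.02, 0.36 and -2.15 (differences 2.53 and 5.73), and its mean difference was 0.63 over its 3 probe sets in place of 4.13. The interferon-induced gene Oasl1 had differences of -1.31 and -1.50.

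Markers of other cell types were used where they passed the filter on dim genes. Of 20 lymphoid markers 16 were on the array, 7 were used and none was bright, and the B cell factor Pax5 (-5.68 and -4.26), the T cell kinase Zap70 (-3.97 and -2.66) and Cd8a (2.85 and 3.08) met the size rule. Of the 14 fibroblast markers 8 were used, with Pdgfra (-2.37 and -1.05) and Fn1 (1.98 and 1.83) past the rule. Of 16 megakaryocyte markers 12 were used, with Gp6 and Selp higher and Gp9 lower by the rule. Of the 17 erythroid markers 10 were used, and Car2 and Rhag were higher by the rule. Of 29 monocyte, macrophage and dendritic cell markers 17 were used, with 4 higher and 2 lower by the rule. Beside these counts, the rule was met by 8.91% of all genes used and by 20.8% of the dimmer ones, and no list was tested. The line's own primary granule genes Mpo, Elane, Prtn3 and Ctsg were at estimated levels of 8 or more.

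The 24 bright genes with the largest differences, 12 in each direction, are shown by array. The largest higher values belonged to Gabra3, a GABA receptor subunit (7.04 at 6 h and 6.16 at 24 h), and Slc1a3, a glutamate transporter (6.71 and 5.75). Slc1a3 measured -0.98, 2.30 and 2.09 in IL-3, at 6 h and at 24 h in the ASXL1-MT culture and 0.98, -2.45 and -1.70 in mock, so the cultures crossed. On 2 of its 6 probe sets the difference was 2 or more at both times. On 2 others it was opposite in sign at both times (-2.62 and -4.61, and -0.44 and -4.37). Over all probe sets of Slc1a3 the mean difference was 0.59 in place of 6.23. Gabra3 measured -1.99, 1.37 and -0.03 against 1.27, -2.41 and -2.93, also with a crossing. The large lower values included Hivep3, a zinc-finger transcription factor (-4.96 and -4.60), which measured -1.40, -2.25 and -2.55 in the ASXL1-MT culture and -2.05, 2.06 and 1.40 in mock. Only 1 of its 5 probe sets met the size rule, and the mean difference over all of them was -1.17 in place of -4.78.

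Other leading higher genes were the nucleotide receptor P2ry6 (4.81 and 4.15), the cadherin Cdh13 (3.93 at 6 h), coagulation factor F7 (4.65 and 2.94), the synaptic gene Rims2 (3.10 and 2.99), Hsf2bp, Rhag, and the transcripts Ino80dos, 4930447K03Rik, Fgf2os and C230072F16Rik. Other leading lower genes were the homeobox genes Dlx3 (-3.91 and -5.36) and Hoxd1 (-3.59 and -5.92), Rhov (-3.80 and -4.82), the ceramide synthase Cers3 (-3.16 and -8.30), the VEGF receptor Kdr (-2.94 and -2.91), the chemokine Cxcl16 (-2.79 at 24 h), the pseudokinase Trib2 (-2.66 and -3.20), Sstr3, Sp110, Rdh12 and 4833422M21Rik. Of the 24 genes 1, Rhag, is a member of the lists.

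In 8 of the 12 higher genes the ASXL1-MT array in IL-3 was the lowest of all 8 arrays, and in 6 of the 12 lower genes the mock array in IL-3 was. Rhov is an example: it measured -4.88 in mock in IL-3 and between -0.72 and 0.97 on the other 7 arrays. Cdh13 measured -4.05 in IL-3 in the ASXL1-MT culture and between -0.95 and 0.44 on the others. Counted from the 2 h arrays, 6 of the 24 genes kept the size and sign at both times, and 12 did not keep a shared sign in the same direction. Of the 24, 8 had a level of 8 or more.

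**Figure D4:**
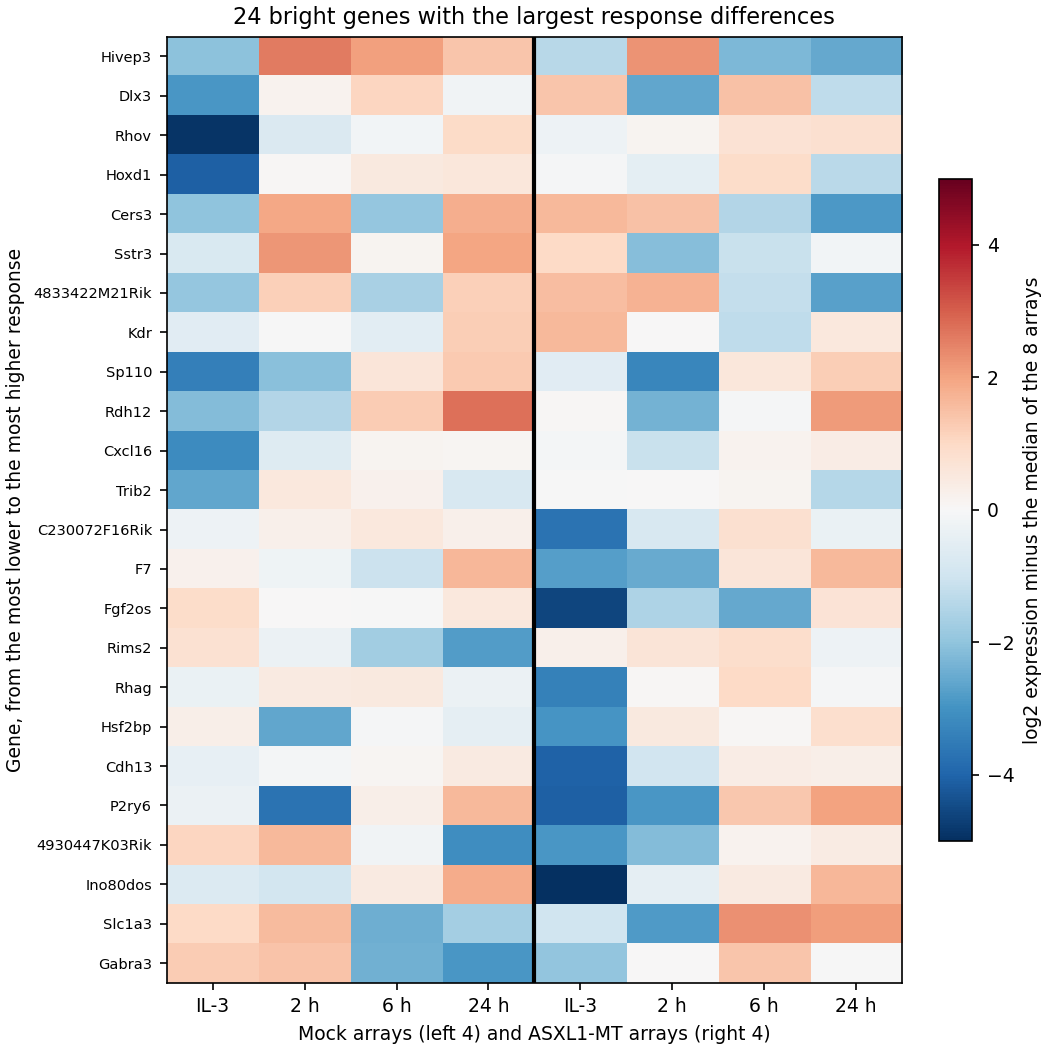
The 24 leading bright genes (rows, from the most negative to the most positive response difference) on the 4 mock arrays (left) and the 4 ASXL1-MT arrays (right), coloured by log2 expression minus the median of the 8 arrays and cut at -5 and 5. Dark blue cells gather in the mock IL-3 column for the lower genes and in the ASXL1-MT IL-3 column for the higher genes.

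A response difference can arise from cultures that part in G-CSF or from cultures that differ in IL-3. Of the 1157 genes past the size rule, 711 (61.5%) were converging, meaning that the cultures were further apart in IL-3 than at 6 h and at 24 h. In 220 (19.0%) they were diverging, meaning closer in IL-3 than at both times, and 226 (19.5%) were neither. Among the 67 bright genes 47 were converging, 8 diverging and 12 neither. Over all genes used, 3904 (30.1%) were converging and 4692 (36.1%) diverging. Since the rule uses the IL-3 arrays, a low or high value there makes a gene pass it and be converging at once. Counted from the 2 h arrays, 325 of the 1157 (28.1%) also met the size rule in the same direction, and 15 of the 67 bright genes (22.4%).

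Among the 1157 genes past the size rule, 434 had a mean over 6 h and 24 h above IL-3 in the ASXL1-MT culture and below it in mock. In 334 of them the reverse held. The rule asks the responses to differ, which favours opposed directions, and the share over all genes used was not computed. Both cultures moved up in 161 higher and 152 lower genes, and both down in 42 and 34. Among all bright genes, the leading lower diverging ones were Hivep3 and Zc4h2. Hivep3 measured 0.65 between the cultures in IL-3, -0.36 at 2 h, -4.32 at 6 h and -3.96 at 24 h. Zc4h2, a zinc-finger protein, measured 0.42, 0.83, -0.52 and -1.70, which gave differences of -0.94 and -2.12 and did not meet the size rule at 6 h. Of the converging genes, Dlx3 measured 4.30 in IL-3, -2.77 at 2 h, 0.39 at 6 h and -1.07 at 24 h. Its order between the cultures turned at each step.

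**Figure D5:**
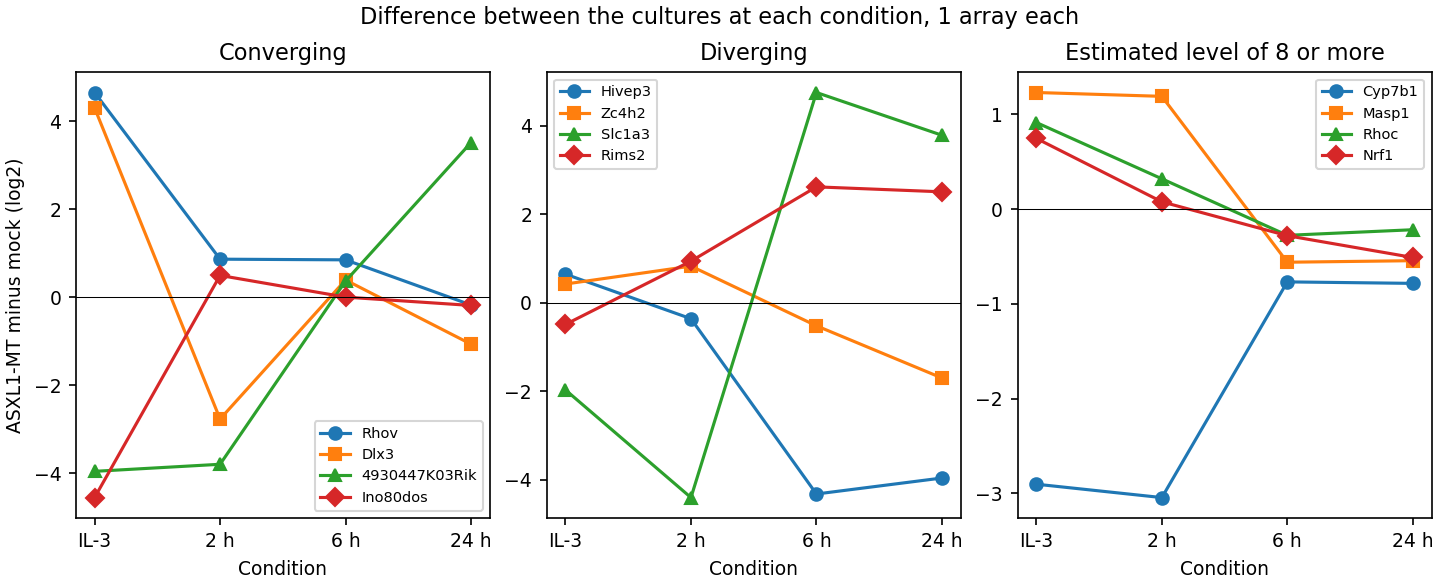
ASXL1-MT minus mock on the log2 scale (vertical axis) in IL-3 and at 2, 6 and 24 h of G-CSF (horizontal axis), 1 array per culture and condition, for 4 converging genes, 4 diverging genes and 4 genes with an estimated level of 8 or more. Cyp7b1 and Masp1 have alike values in IL-3 and at 2 h and alike values at 6 h and 24 h (early gaps of -2.90 and -3.04 for Cyp7b1).

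The 8 arrays allowed 1 test, with limma, of whether the difference between the cultures at 6 h and 24 h departed from that in IL-3 and at 2 h. Time points stood in for replicates: the error was the change of that difference from IL-3 to 2 h and from 6 h to 24 h. No gene passed at an adjusted p of 0.05 (0 of 12984, 0%), and the smallest adjusted p was 0.703. At an unadjusted p under 0.05 there were 608 genes (4.68%). The smallest adjusted p ranged from 0.0948 to 0.767 over the alternative settings, and no gene passed in any of them.

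Genes with steady values were chosen here after their values were seen, and they are not the only steady ones. Cyp7b1, an oxysterol hydroxylase, measured -2.90 between the cultures in IL-3, -3.04 at 2 h, -0.77 at 6 h and -0.78 at 24 h. Its late difference was 2.20 ± 0.14 (SE; limma adjusted p = 0.703), so the cultures were closer at the late times. Masp1, a protease of the lectin complement pathway, measured 1.23, 1.19, -0.56 and -0.55, with a late difference of -1.76 ± 0.12 (adjusted p = 0.703). Of the other probe sets of Masp1, one at an estimated level of 6.95 gave response differences of 3.79 and 3.51, opposite in sign. The other 2 probe sets of Cyp7b1 were at levels of 3.79 and 1.75 and gave differences of 9.25 and 4.07, and of -4.02 and -0.02. Neurl1a, a ubiquitin ligase, measured 0.44, 0.17, 1.57 and 1.44, with a late difference of 1.20 ± 0.17 (adjusted p = 0.884), and its other 5 probe sets did not share 1 direction. Among dimmer genes, Sema4f measured 0.06, -0.10, -3.72 and -3.69, with a late difference of -3.68 ± 0.14 (limma adjusted p = 0.703). Both of its 2 probe sets were lower by the size rule. Oasl1, with 1 probe set, had a late difference of -1.49 ± 0.16 (limma adjusted p = 0.739).

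Of the 1157 genes, 609 had several probe sets, and in 158 of these (25.9%) at least 2 probe sets met the size rule in the same direction. Among the bright genes it was 10 of 39. Over all 45037 probe sets 9.89% met the rule higher and 8.29% lower. What share of genes with several probe sets would hold 2 at these rates was not computed. Some of the genes also had probe sets past the rule the other way, such as Kalrn, with 2 in each direction among its 8. Just inside the size rule among the bright genes were Neurl1a (1.14 and 1.00), the mitochondrial regulator Nrf1 (-1.03 and -1.26) and Zcchc2 (1.18 and 1.04). Just outside it were the syntaxin Stx17 (-1.26 and -0.99), Nlrp9c (-0.98 and -2.63) and the kallikrein Klk1 (0.96 and 1.00).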

How the data were processed

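Expression was measured in 32Dcl3 cells on 8 arrays, 1 per culture and condition. MAS 5.0 read the array intensities, per the labels. RMA is named in the submitters' processing notes. The deposited values are log2 expression minus each probe set's median over the 8 arrays (every median within 5e-07 of 0); the sources used here give no base, centring or scaling. Design text and table differ on the array: the text names the A array, and the table holds 45037 probe sets. Of these 34945 carried 1 gene symbol, 932 several and 9160 none.

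Since centring removes the level, it was inferred from the numerical step to which the centred values had been rounded, which grows with level. That step changes only at a few levels, such as 4 and 8, so the estimate is coarse and hardly separates levels above 8. A gene was represented by the probe set of highest estimated level (rounded level, then the more specific probe set type, then name). Genes were used when at least 2 arrays reached an estimated level of 6.25, the table's median, and called bright at 8.32, its 70th percentile. Response differences were computed by subtraction. limma 3.58.1 (R 4.3.3; lmFit and eBayes, 2 residual degrees of freedom, prior worth 1.16, two-sided, Benjamini-Hochberg) fitted time point, vector and an indicator of ASXL1-MT at 6 h and 24 h. Scripts were tested on simulated data. Time points stood in for replicates. P-values and SEs therefore measure how the difference between the cultures changed from IL-3 to 2 h and from 6 h to 24 h. Such a change may be biological or technical.

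The members, lists and rules were chosen with earlier results of these data known. Genes named by rule were the 12 bright genes in each direction with the largest smaller-of-both difference, list members past the size rule, Asxl1, and the leading 2 diverging and converging genes in each direction. Other genes were named for their role after their values were seen. Alternatives changed the scaling, the probe set rule, the brightness filter, the baseline, the size rule, the arrays fitted and the variance prior.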

Additional observations from a re-analysis of the deposited data

Results flagged for a closer look

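In 8 of the named genes the cultures moved in opposite directions from IL-3, each by at least 0.5 on the log2 scale at both 6 h and 24 h. The mean response difference over both times was 6.60 for Gabra3, 6.23 for Slc1a3, 5.89 for 4930447K03Rik and 1.91 for the fibroblast marker Fn1, where the ASXL1-MT culture moved up and mock down. It was -4.97 for Pax5, -4.78 for Hivep3, -3.47 for Sstr3 and -3.32 for Zap70, where mock moved up and the ASXL1-MT culture down. The opposition itself was not tested, since each condition had 1 array. Of the 60 named genes 58 were past the size rule, which favours opposed directions. In the limma test of the late difference the adjusted p was 0.739 for Hivep3, 0.884 for Gabra3, Slc1a3 and Zap70, and above these for the other 4 genes. Pax5, Zap70 and Fn1 were not bright. Over all probe sets of the gene the mean difference was 3.57 for Gabra3, 0.59 for Slc1a3 and 0.72 for Fn1. It was -2.62 for Pax5, -1.17 for Hivep3, -3.12 for Sstr3 and -1.68 for Zap70. Counted from the 2 h arrays, it was 4.73, 8.66, 5.73 and 0.60 for Gabra3, Slc1a3, 4930447K03Rik and Fn1. For Pax5, Hivep3, Sstr3 and Zap70 it was then -0.74, -3.78, 2.66 and -3.55.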

How the results depend on the processing

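The limma fit compared the cultures within each time point. A further block by replicate number could not be fitted, since each condition had 1 array. The direction and size of all 60 named genes were kept within their spread when each array was centred on its median and when quantile normalization was repeated. The count of genes past the size rule, 637 higher and 520 lower, depended most on brightness: it was 1654 and 1385 without the filter on dim genes and 39 and 28 with the stricter filter, which left 3 higher and 2 lower list members in place of 23 and 12. It was 1117 and 948 with a size of 0.5, 407 and 300 with a size of 1.5, and 4455 and 3735 when probe sets were counted. With the mean of the IL-3 and 2 h arrays as baseline 543 genes were higher and 304 lower, and with the 2 h arrays alone 736 and 436.

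Mean response differences changed sign in 18 named genes with the 2 h arrays as baseline: Ccr2 2.18, Cxcl16 0.58, Dlx3 2.43, Gp9 1.22, Pdgfra 2.24, Saa3 0.04, Sp110 1.09, Sstr3 2.66, Tnfsf10 0.34 and Trib2 0.18 from negative values, and Ccl24 -0.03, Cd209a -0.08, Cd8a -0.24, Cxcr2 -0.02, Hsf2bp -2.36, Ino80dos -0.59, Mpeg1 -1.44 and P2ry6 -0.08 from positive ones. With the mean of both early arrays Pdgfra measured 0.27. With the mean of all probe sets the sign changed in C230072F16Rik (-1.15), Rims2 (-0.05), Spry4 (-0.37), Tnfrsf10b (-0.47) and Tnfsf10 (0.28). The cause was not tested. In the limma test no gene passed under any setting, and with 1 or 2 residual degrees of freedom this says nothing about stability. Dim signal limits precision: the median SD over the arrays was 1.35 at levels under 4, 0.72 at 4 to 8 and 0.26 at 8 or more.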
